A study of Arabidopsis thaliana with 30 samples.

Results

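LTI30 (locus AT3G50970, also named XERO2 and LOW TEMPERATURE-INDUCED 30) is a dehydrin gene of Arabidopsis thaliana, and its signal was followed here across 5 sorted root cell types at 2 pH values. The gene was found by its symbol in the annotation of the array, where 1 probe set is paired with LTI30 and with no other gene. It is 1 of 13286 genes that have a probe set of their own. The series measured transcripts on 30 Affymetrix ATH1 arrays in Columbia seedlings that were kept for 24 h on medium of pH 4.6, or of pH 5.7 as the control. Before that, all seedlings had been stratified at 4 °C for 2 days and grown for 5 days on MES-buffered medium of pH 5.7, and both transfer media held 3 mM DMG as buffer and 1% sucrose. Cells came from roots of 6 days, which were protoplasted and sorted for GFP fluorescence.

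Each of the 10 groups held 3 arrays, so every cell type had 3 arrays at pH 4.6 and 3 at pH 5.7. Columella cells, at the centre of the root cap, came from the Pet111::GFP line. Epidermis cells, sorted together with the lateral root cap, came from pWER::GFP, and cortex cells from pCOR315.1::GFP. Endodermis cells, sorted together with the quiescent center, came from pSCR::GFP, and the cells of the stele, the central vascular cylinder, came from pWOL::GFP. Protoplasting and sorting are shared by all 10 groups, and every value here comes from cells treated in that way. The labels do not say that the replicates came from separate cultures, so the spread behind each p-value is that between these arrays and may be technical. A signal is measured per amount of labelled RNA, and a difference between groups in how many of the sorted cells carry a transcript cannot be told apart from a difference in transcript per cell.

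Dehydrins are very hydrophilic proteins of the late embryogenesis abundant (LEA) class that accumulate in plant cells when water is lost, as in drying, freezing and salt stress. They have little fixed structure in solution and carry lysine-rich K-segments that can fold on membranes. LTI30 binds and protects lipid membranes in vitro, and its gene is known for its induction by cold and by the stress hormone abscisic acid (ABA). Medium of low pH raises the proton load on root cells, which normally hold their cytosol near neutral.

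At pH 4.6, LTI30 was higher in the columella and in the epidermis, by 3.34-fold and 2.28-fold. In cortex, endodermis and stele its changes were 1.30-fold, 1.17-fold and 1.34-fold, and none of these 3 passed the threshold. The columella and the epidermis had the lowest LTI30 signals on control medium, whose arrays also enter the change, and the levels of the 5 cell types lay closer together at pH 4.6 than at pH 5.7.

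In the columella, the LTI30 signal on the linear intensity scale was 6026, 5708 and 5237 at pH 4.6, against 1820, 1755 and 1495 at pH 5.7. The lowest pH 4.6 array lay far above the highest pH 5.7 array. Mean signals were 5657 ± 397 at pH 4.6 and 1690 ± 172 at pH 5.7 (SD, n = 3 each). The log2 change, pH 4.6 minus pH 5.7, was 1.74 ± 0.15 (SE), with a 95% confidence interval of 1.44 to 2.04, and limma's adjusted p was 5.01e-10. Of all tested probe sets, 9.95% were called higher at pH 4.6 in the columella, where a call is a limma p-value below 0.05 after Benjamini-Hochberg adjustment over 17039 probe sets. LTI30 had the change of rank 209 from the top among these.

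In the epidermis with lateral root cap, LTI30 reached 4721, 4836 and 6065 at pH 4.6, against 2163, 2470 and 2179 at pH 5.7. The groups did not overlap, and replicate 3 at pH 4.6 stood above its 2 partners. The means were 5207 ± 745 at pH 4.6 and 2271 ± 173 at pH 5.7 (SD, n = 3 each). The log2 change of 1.19 ± 0.15 had a confidence interval of 0.89 to 1.49 and a limma adjusted p of 5.08e-06. In this cell type 6.90% of the probe sets were called higher, and LTI30 ranked 308 by its change.

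In the cortex, LTI30 signals were 8956, 8240 and 7911 at pH 4.6, against 7820, 6631 and 5109 at pH 5.7. The pH 4.6 arrays were all above the pH 5.7 arrays, but the lowest of the one and the highest of the other were close, and the pH 5.7 arrays spread widely (means 8369 ± 535 and 6520 ± 1359, SD, n = 3 each). The log2 change was 0.38 ± 0.15, with an interval of 0.08 to 0.68, and it missed the threshold at a limma adjusted p of 0.0707. Cortex calls of higher signal made up 11.6% of the probe sets. Without replicate 1 of the cortex at pH 5.7, the change was 0.52 and its limma adjusted p 0.0242. Without replicate 3 at pH 5.7 it was 0.21 (limma adjusted p 0.368). With quantile normalization it was 0.61 (limma adjusted p 0.00248), and with array weights 0.30 (limma adjusted p 0.0404).

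The endodermis with quiescent center gave LTI30 signals of 7713, 8591 and 9541 at pH 4.6, against 7441, 7246 and 7351 at pH 5.7. These groups did not overlap either, and the pH 5.7 arrays were nearly equal (8615 ± 914 at pH 4.6 and 7346 ± 97.6 at pH 5.7, SD, n = 3 each). The log2 change of 0.22 ± 0.15 had an interval of -0.08 to 0.52, which includes no change, and a limma adjusted p of 0.323. It was 0.15 without replicate 3 at pH 4.6 (limma adjusted p 0.596) and 0.36 with quantile normalization (0.0778). Among all probe sets, 9.60% were called higher in the endodermis.

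In the stele, LTI30 signals were 5629, 6316 and 7647 at pH 4.6, against 4995, 4997 and 4519 at pH 5.7. Again the pH 4.6 arrays were the higher ones without overlap, and they were the more spread (6531 ± 1026 at pH 4.6 and 4837 ± 275 at pH 5.7, SD, n = 3 each). The log2 change of 0.42 ± 0.15 had an interval of 0.12 to 0.72 and a limma adjusted p of 0.0796, beside 4.18% of probe sets called higher. Leaving out replicate 1 of the stele at pH 4.6 gave a change of 0.52 and a limma adjusted p of 0.0476.

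**Figure D1:**
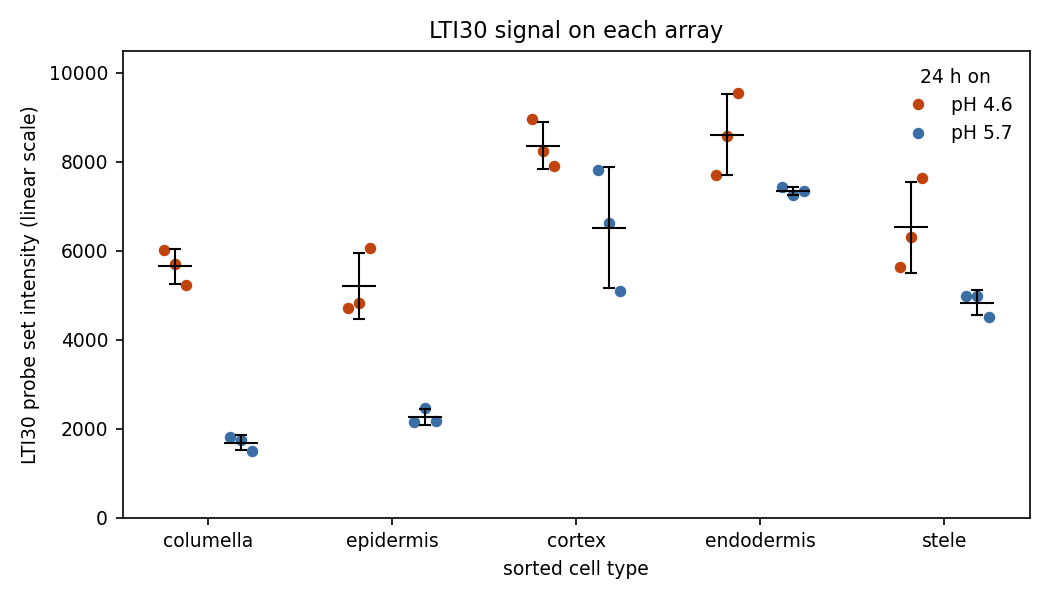
LTI30 signal (linear probe set intensity, vertical axis) on each of the 30 arrays, by sorted cell type, with pH 4.6 to the left of pH 5.7. Points are arrays, horizontal marks are means and bars are SD (n = 3). In every cell type the 3 arrays at pH 4.6 lie above the 3 at pH 5.7, with the widest gap in the columella, at 5657 against 1690.

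Thus all pH 4.6 arrays were above all pH 5.7 arrays of the same cell type in each of the 5 cell types. A separation of this kind, upwards at pH 4.6, was found for 20.2% of the probe sets in the columella, 14.9% in the epidermis, 21.2% in the cortex, 15.8% in the endodermis and 15.9% in the stele. It was found in all 5 cell types together for 453 probe sets, or 2.66%. Averaged over the cell types, the LTI30 change was 0.79 ± 0.07 on the log2 scale, or 1.73-fold, with an interval of 0.66 to 0.92 and a limma adjusted p of 1.24e-10 (15 arrays at each pH). For this mean change 23.2% of the probe sets were called higher and 18.9% lower.

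**Figure D2:**
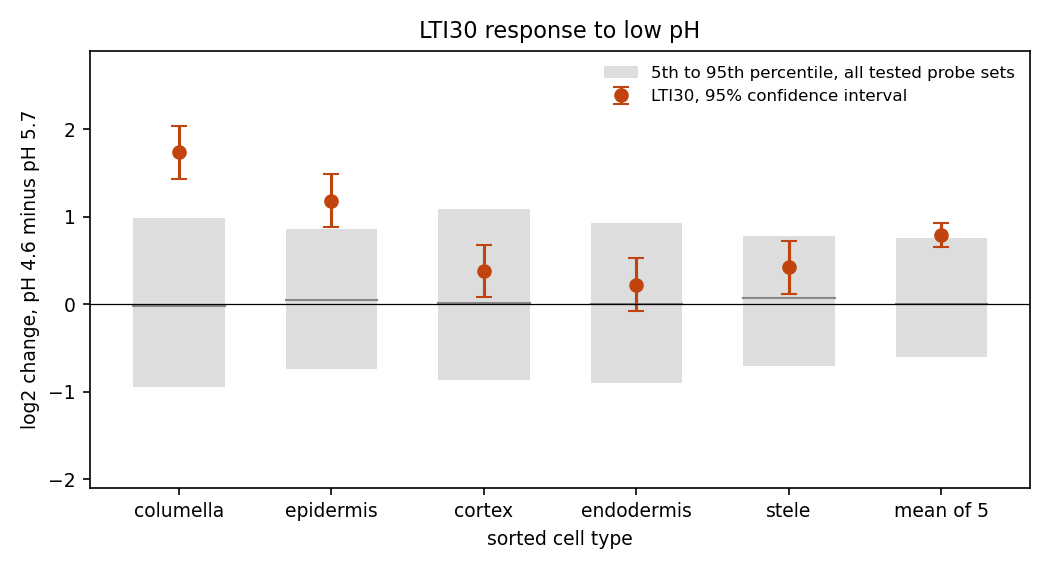
Log2 change of LTI30, pH 4.6 minus pH 5.7, in each cell type and as the mean of the 5 cell types; bars through the points are 95% confidence intervals. Grey boxes span the 5th to the 95th percentile of the changes of all 17039 tested probe sets, with their median as a line. LTI30 lies above the box in the columella (1.74) and in the epidermis (1.19), and inside it in cortex (0.38), endodermis (0.22) and stele (0.42).

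The response of LTI30 differed between cell types. The interaction of pH and cell type, an F test of equal change in the 5 cell types, gave F = 19.5 and a limma adjusted p of 1.82e-05. This test called 12.5% of all probe sets, and LTI30 held rank 78 by its p-value. Its response was then compared over the 10 pairs of cell types, with the difference between log2 changes as the measure and a SE of 0.21 for each pair. The columella response exceeded that of the cortex by 1.36 (limma adjusted p 6.92e-05), beside 9.04% of probe sets called for this pair. It exceeded that of the endodermis by 1.51 (limma adjusted p 2.13e-05), where 8.57% were called, and that of the stele by 1.32 (limma adjusted p 0.000104), where 7.28% were called.

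The epidermis response of LTI30 exceeded that of the endodermis by 0.96 (limma adjusted p 0.0162, 1.28% of probe sets called), although this call was lost without replicate 3 of the epidermis at pH 4.6 (limma adjusted p 0.0526). It exceeded that of the cortex by 0.81 (limma adjusted p 0.0377, 1.95% called), but that call was lost in 12 of 39 alternatives. They include the replicate block (limma adjusted p 0.0514), the omission of any single cortex array other than replicate 3 at pH 5.7, and of epidermis replicates 2 or 3 at pH 4.6 or 1 or 3 at pH 5.7. Its highest limma adjusted p there was 0.124, with a difference of 0.67, without replicate 1 of the cortex at pH 5.7. Epidermis and stele differed by 0.76 (interval 0.34 to 1.19), which did not pass (limma adjusted p 0.161), in a pair where only 0.170% of the probe sets were called. With array weights or quantile normalization this pair did pass, at limma adjusted p-values of 0.0248 and 0.0327.

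Between the cell types with the highest gains, columella minus epidermis, the difference was 0.55 with an interval of 0.13 to 0.98 (limma adjusted p 0.104, 7.85% called), and it passed with equal array medians (0.0397) or array weights (0.0287) as limma adjusted p-values. Among the inner cell types no pair was called. Cortex minus endodermis was 0.16 (interval -0.27 to 0.58, limma adjusted p 0.906, 0.528% called). Cortex minus stele was -0.04 (interval -0.47 to 0.38, limma adjusted p 0.953, 1.84% called), and endodermis minus stele was -0.20 (interval -0.62 to 0.23, limma adjusted p 0.784, 0.710% called). These intervals still allow differences as large as the stele change itself.

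The levels themselves also differed between cell types at both pH values. At pH 4.6 the order from low to high was epidermis, columella, stele, cortex and endodermis. Neighbours overlapped at most steps: columella minus epidermis had a limma adjusted p of 0.495 (53.2% of probe sets called), columella minus stele 0.262 (55.4% called) and cortex minus endodermis 0.874 (33.6% called). The step between stele and cortex was the one without overlap, with a limma adjusted p of 0.0487 (38.2% called), and this call was lost in 24 of 39 alternatives, with a highest adjusted p of 0.215 without replicate 1 of the stele at pH 4.6. With equal array medians its adjusted p was 1.9e-05, at a difference of 0.84 in place of 0.37, and the order itself changed. Under that scaling the stele was lowest, 0.04 below the columella and 0.05 below the epidermis, and the cortex was highest, 0.16 above the endodermis, all on the log2 scale. In the order as deposited, its ends, epidermis minus endodermis, differed by -0.73 on the log2 scale, so the epidermis was 1.66-fold lower (limma adjusted p 0.000148, 48.7% called).

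At pH 5.7 the order from low to high was columella, epidermis, stele, cortex and endodermis, with wider steps. With equal array medians the cortex was the high end, 0.13 above the endodermis. As deposited, LTI30 in the columella was below that in the epidermis (limma adjusted p 0.0144, 57.5% of probe sets called) and in the epidermis below that in the stele (limma adjusted p 8.36e-07, 37.5% called). The stele was below the cortex (limma adjusted p 0.0277, 38.0% called), while cortex and endodermis overlapped (limma adjusted p 0.316, 39.4% called). Columella minus endodermis, the ends of the order, was -2.12 on the log2 scale, so the columella was 4.34-fold lower (limma adjusted p 3.6e-13, 57.5% called). The columella and epidermis step was not called without replicate 3 of the columella at pH 5.7 (limma adjusted p 0.0823) or without replicate 2 of the epidermis at pH 5.7 (0.0564). The step between stele and cortex was 0.41 on the log2 scale and 0.88 with equal array medians. It was not called with quantile normalization, at 0.16 (limma adjusted p 0.402), nor without cortex replicate 1 (0.195), cortex replicate 2 (0.0779) or stele replicate 3 (0.0901) at pH 5.7.

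Over the 5 cell types, differences in LTI30 level passed the F test at pH 4.6 (F = 9.98, limma adjusted p 8.06e-05) and at pH 5.7 (F = 81.3, limma adjusted p 7.21e-14). Most of the array did so as well, with 78.9% of probe sets called at pH 4.6 and 82.7% at pH 5.7. The range between the lowest and the highest cell type was 0.73 on the log2 scale at pH 4.6 and 2.12 at pH 5.7, a change of -1.39. For all tested probe sets the median range was 1.25 at pH 4.6 and 1.37 at pH 5.7. A narrower range at pH 4.6 was common, at 60.7% of the probe sets, and a stronger narrowing than that of LTI30 was seen for 413 of them, or 2.42%. Sorted by their LTI30 level at pH 5.7, from low to high, the cell types had log2 changes of 1.74, 1.19, 0.42, 0.38 and 0.22, in falling order. The pH 5.7 arrays enter both the level and the change, so a relation of this sign is common: Pearson's r over the 5 cell types was -0.98 for LTI30, the median over all tested probe sets was -0.52, and 1.44% lay below LTI30. These are descriptions.

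LTI30 was a bright and evenly measured probe set. Its signals ran between 1495 and 9541, while array medians lay between 43.8 and 71.7, and on each array between 33 and 1228 probe sets were brighter. It reached at most 63.0% of the brightest signal on its array, and these maxima lay between 13225 and 26756. The residual SD of LTI30 on the log2 scale was 0.16, against a median of 0.32 over all tested probe sets, and 4.18% of the probe sets had a smaller one.

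Marker genes were read on the same arrays, since the LTI30 level differed between cell types. None of the 4 listed columella and root cap markers was analysed here, so the columella label could not be checked against its own markers. EXPA7 and EXPA18 (root hair expansins, 2 of 8 epidermis markers) were highest in the epidermis arrays. The 3 cortex markers AT1G09750, AT1G62510 and AT3G21670 were highest in cortex, and the receptor kinase gene GSO1 was highest in the endodermis. AT1G09750 is the gene whose promoter drove the GFP of the cortex line, so its place there is no independent check of the sort. AGL42 and AT4G28100, on the endodermis and quiescent center list, were highest in cortex. Of the 2 stele markers analysed of 11, LHW was highest in the stele and PHV in the columella. No marker value was at 0. In the columella, where LTI30 gained most, the summed signal of the 3 cortex markers was 5.98 to 46.2 at pH 4.6 and 24.5 to 65.5 at pH 5.7, and that of the 3 endodermis markers analysed of 12 was 44.6 to 84.4 at pH 4.6 and 54.8 to 84.1 at pH 5.7. The 2 epidermis markers summed there to 20.6 to 50.0 at pH 4.6 and 19.4 to 81.0 at pH 5.7. The 2 stele markers summed there to 800 to 825 at pH 4.6 and 550 to 730 at pH 5.7, without overlap.

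In the epidermis arrays the cortex markers summed to 91.3 to 133 at pH 4.6 and 161 to 343 at pH 5.7, without overlap. The endodermis markers summed there to 88.9 to 125 at pH 4.6 and 86.3 to 190 at pH 5.7. The stele markers summed there to 161 to 324 at pH 4.6 and 122 to 235 at pH 5.7. The epidermis arrays' own 2 markers summed to 1046 to 1559 at pH 4.6 and 2809 to 8896 at pH 5.7, without overlap. The stele arrays carried epidermis marker signal too, at 548 to 933 at pH 4.6 and 1485 to 3303 at pH 5.7. In the cortex arrays the endodermis markers summed to 734 to 1062 at pH 4.6 and 1363 to 3223 at pH 5.7. These sums did not overlap either. The cortex arrays' own markers summed to 2642 to 3871 at pH 4.6 and 6896 to 7894 at pH 5.7, and those of the endodermis arrays to 3265 to 6186 at pH 4.6 and 7272 to 7560 at pH 5.7, both without overlap. Most of the endodermis sum was GSO1, at means of 4880 at pH 4.6 and 7029 at pH 5.7, a change not called (limma adjusted p 0.215). The stele arrays' own markers summed to 545 to 986 at pH 4.6 and 311 to 474 at pH 5.7, also without overlap. The sums were not tested, and 15.9% of probe sets separated upwards in the stele. Singly, EXPA7 and EXPA18 were called lower in the epidermis (limma adjusted p 0.0124 and 0.00842), calls lost in 4 and 2 of 39 alternatives. In the cortex 2 of 3 cortex markers were called lower (7.51% of all probe sets). In the endodermis 0 of 3 of its markers were called lower (6.97%). The 2 stele markers passed in neither the stele nor the columella. The part of these marker sums in the LTI30 differences was not tested. As a sign of RNA length, the log2 ratio of 3′ to 5′ control probe sets for GAPDH changed, pH 4.6 minus pH 5.7, by -0.59 in the columella, -0.19 in the epidermis, -0.999 in the cortex and -0.55 in the endodermis, without overlap, and by -0.14 in the stele, with overlap. For ubiquitin it changed by -0.64 in the cortex without overlap and by -0.03 to 0.14 with overlap in the other cell types. The actin ratios overlapped in all 5. The part of RNA length in the LTI30 differences was not tested.

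The dehydrins that could be tested changed in different directions. Of 10 listed dehydrin genes, 6 were analysed and 4 passed the filter on low values, which asked for a signal over the 40th percentile of the array on 3 or more arrays. LTI30 and AT4G38410 were called higher in the columella (2 of 4, beside 9.95% of all probe sets), and AT1G54410 was called lower there, beside 10.6% of all probe sets called lower. In the epidermis 1 of 4, LTI30, was called higher (6.90% of all probe sets). In the cortex 1 of 4 was called lower (7.51% of probe sets), in the endodermis 2 of 4 (6.97%), and in the stele 0 of 4 passed in either direction. The median log2 change of the 4 genes, averaged over cell types, was 0.13, against 0.00 for all tested probe sets. XERO1, ERD10, ERD14 and RAB18 were not analysed here.

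AT1G54410, the small histidine-rich dehydrin HIRD11, fell in 3 cell types. In the columella its signal was 3373 ± 410 at pH 4.6 and 9017 ± 1220 at pH 5.7 (SD, n = 3 each), a log2 change of -1.41 ± 0.15, or 2.67-fold lower (limma adjusted p 7.2e-08). It was 2543 ± 110 at pH 4.6 and 5225 ± 291 at pH 5.7 in the cortex (log2 change -1.03, limma adjusted p 1.46e-05). In the endodermis it was 3177 ± 382 at pH 4.6 and 5496 ± 743 at pH 5.7 (log2 change -0.79, limma adjusted p 0.000742). None of these groups overlapped, and the changes of -0.07 in the epidermis and 0.08 in the stele did not pass (limma adjusted p 0.838 and 0.809). Like that of LTI30, its response differed between cell types (interaction, limma adjusted p 4.25e-05), and on the mean over cell types it was lower (log2 change -0.65 ± 0.07, limma adjusted p 1.49e-08).

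COR47, an acidic dehydrin of the cold and drought response, was bright in all cell types. In the endodermis it was 5266 ± 1693 at pH 4.6 and 9406 ± 2322 at pH 5.7 (SD, n = 3 each), a log2 change of -0.86 ± 0.28 (limma adjusted p 0.0307). In the columella it was 11345 ± 400 at pH 4.6 and 12622 ± 805 at pH 5.7, a log2 change of -0.15 (limma adjusted p 0.765). Its mean change over cell types was -0.31 ± 0.12 (limma adjusted p 0.0416). The endodermis call was lost in 5 of 39 alternatives, with array weights (limma adjusted p 0.122), with quantile normalization (0.0612) and without endodermis replicate 1 at pH 4.6 (0.235) or replicates 2 (0.135) or 3 (0.0923) at pH 5.7. The mean call was lost in 21 of 39, with a highest limma adjusted p of 0.109. Its interaction did not pass (limma adjusted p 0.238).

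AT4G38410, a dehydrin family gene, was dim outside the columella. In the columella its signal was 716 ± 132 at pH 4.6 and 262 ± 58.0 at pH 5.7 (SD, n = 3 each), a log2 change of 1.42 ± 0.35, or 2.67-fold higher (limma adjusted p 0.0035). In the other 4 cell types its group means were at most 51.8 and no change was called. Its mean log2 change was 0.57 ± 0.15 (limma adjusted p 0.00374), while its interaction did not pass (limma adjusted p 0.243), except with a pseudocount at the 50th percentile (0.0059). The dehydrin genes AT2G21490 (symbol LEA), at 0.753 to 21.1, and AT4G39130, at 1.11 to 41.4, were below the filter and were not tested.

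**Figure D3:**
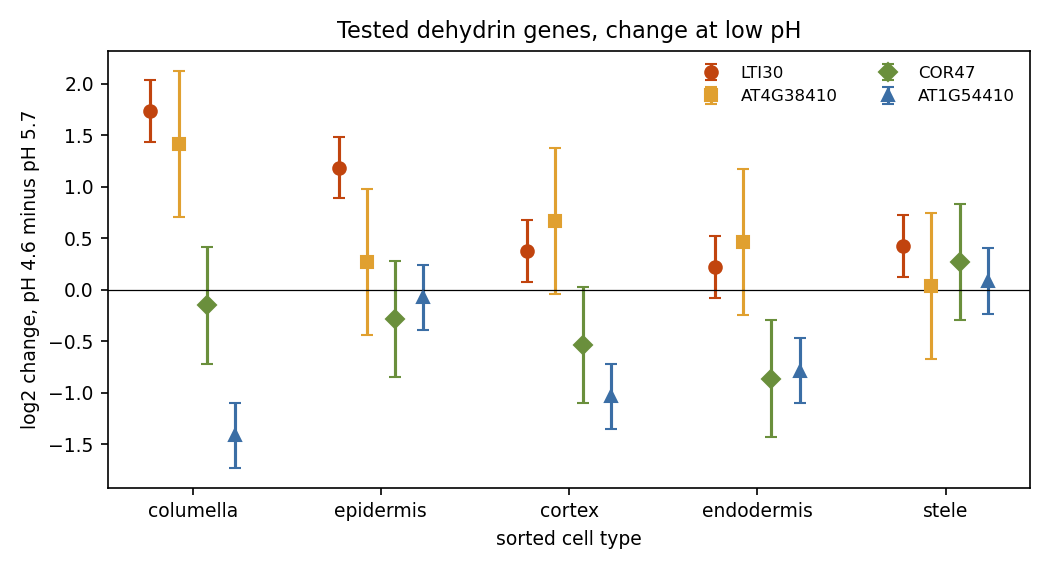
Log2 change, pH 4.6 minus pH 5.7, of the 4 dehydrin genes that passed the filter, by cell type, with 95% confidence intervals from limma. LTI30 (circles) and AT4G38410 (squares) lie above 0 in the columella at 1.74 and 1.42, COR47 (diamonds) lies at -0.15, and AT1G54410 (triangles) lies below 0 at -1.41.

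LEA proteins outside the dehydrins formed a list of 36 genes, of which 27 were analysed and 10 passed the filter. In the columella 3 of 10 were called higher and 1 lower, beside 9.95% and 10.6% of all probe sets. In the epidermis 0 of 10 passed, in the cortex 1 was lower (7.51% of all), in the endodermis 1 was higher and 1 lower (9.60% and 6.97% of all), and in the stele 0 passed. On the mean over cell types 2 were higher and 2 lower, near the 23.2% and 18.9% of all probe sets, and the median log2 change of the 10 was 0.10, against 0.00 for all tested probe sets. DI21, a drought-induced LEA gene, rose on the mean by 0.56 ± 0.11 (limma adjusted p 0.000208), with a positive change in 5 of 5 cell types. Its columella signal was 6714 ± 551 at pH 4.6 and 4137 ± 447 at pH 5.7 (SD, n = 3 each; log2 change 0.70 ± 0.25, limma adjusted p 0.0485), a call lost in 23 of 39 alternatives with a highest limma adjusted p of 0.159.

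AT3G53040, another LEA gene, was 299 ± 52.3 at pH 4.6 and 101 ± 22.6 at pH 5.7 in the columella (SD, n = 3 each; log2 change 1.47 ± 0.27, limma adjusted p 0.000212). Elsewhere its group means lay between 3.28 and 24.5. In the endodermis they were 20.8 ± 14.3 at pH 4.6 and 3.28 ± 2.22 at pH 5.7 (limma adjusted p 0.01), with the pH 5.7 mean below the pseudocount of 11.9, and this call was lost in 4 of 39 alternatives, with a highest limma adjusted p of 0.117 without endodermis replicate 1 at pH 4.6.

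AT2G44060 (LEA26) fell on the mean by 0.61 on the log2 scale (limma adjusted p 2.7e-06). Its columella signal was 1018 ± 24.3 at pH 4.6 and 2380 ± 341 at pH 5.7 (SD, n = 3 each; log2 change -1.21 ± 0.20, limma adjusted p 4.5e-05). Its changes of -0.63 in the cortex and -0.59 in the endodermis passed as well (limma adjusted p 0.0241 and 0.0424). The cortex call was lost in 5 of 39 alternatives, with a highest limma adjusted p of 0.138 without cortex replicate 1 at pH 4.6, and the endodermis call in 7 of 39, with a highest of 0.362 and a change of -0.30 without endodermis replicate 1 at pH 4.6. AT2G46140 (LEA27) fell on the mean by 0.37 on the log2 scale (limma adjusted p 0.00555), with no cell type called. COR15A, a chloroplast LEA gene of the cold response, was below the filter at 0.478 to 18.3, and its relative COR15B, at 2.02 to 33.6, had a mean log2 change of 0.16 (limma adjusted p 0.441).

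Few genes of the cold and ABA pathways around LTI30 were analysed. Of 16 cold regulators 1 was analysed, the zinc finger gene STZ (ZAT10), and its mean log2 change was -0.06 (limma adjusted p 0.76). Of 18 cold-responsive effectors 3 were analysed and 2 tested, of 23 ABA and drought responsive genes 1, COR47, and of 29 ABA signalling genes and 13 ABA synthesis and breakdown genes 0 were analysed here.

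Genes with the most similar pattern were found by Pearson's r with LTI30 over the 10 group means of log2 signal, among 9464 other tested probe sets with a single gene. The median r of these was -0.01, and 10 of them had an r above 0.9. The 8 highest were AT3G55430 (r = 0.953), AT5G27760 (0.943), AT1G13730 (0.943), AT1G61690 (0.929), the sulfur E gene SUFE2 (0.919), the HY5 homolog HYH (0.918), AT2G36160 (0.917) and the BOBBER gene BOB1 (0.909). The next in order, AT3G16800, had an r of 0.905. The group means share cell types, arrays and scaling, so r is given as a description over 10 points. Of these 8 genes, 4 were also among the 8 highest by r over the 30 arrays, and 0 of 8 were among the 8 highest by r over the 5 log2 changes. AT1G13730, dim at group means of 33.6 to 144, had an r of 0.63 over the 30 arrays (rank 369). Its pH change was called in 0 of 5 cell types.

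AT3G55430, the most similar, had a group mean of 2156 at pH 4.6 and 1308 at pH 5.7 in the columella, and of 3796 at pH 4.6 and 2833 at pH 5.7 in the cortex. SUFE2 was dimmer and varied more, with 246 at pH 4.6 and 47.0 at pH 5.7 in the columella and 1374 at pH 4.6 and 725 at pH 5.7 in the endodermis. Its change was called in the columella (limma adjusted p 1.05e-05) but not in the endodermis (0.0641). HYH, a light-signalling transcription factor gene, had 124 at pH 4.6 and 21.1 at pH 5.7 in the columella (limma adjusted p 1.13e-07). In the endodermis HYH had 174 at pH 4.6 and 199.9 at pH 5.7, with overlap and no call (log2 change -0.20, limma adjusted p 0.617). Each of the 8 had its lowest group mean in the columella at pH 5.7, except AT1G13730, whose lowest was the epidermis at pH 5.7. The 8 were chosen by r over these same group means, so a low point shared with LTI30 largely follows from the choice.

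**Figure D4:**
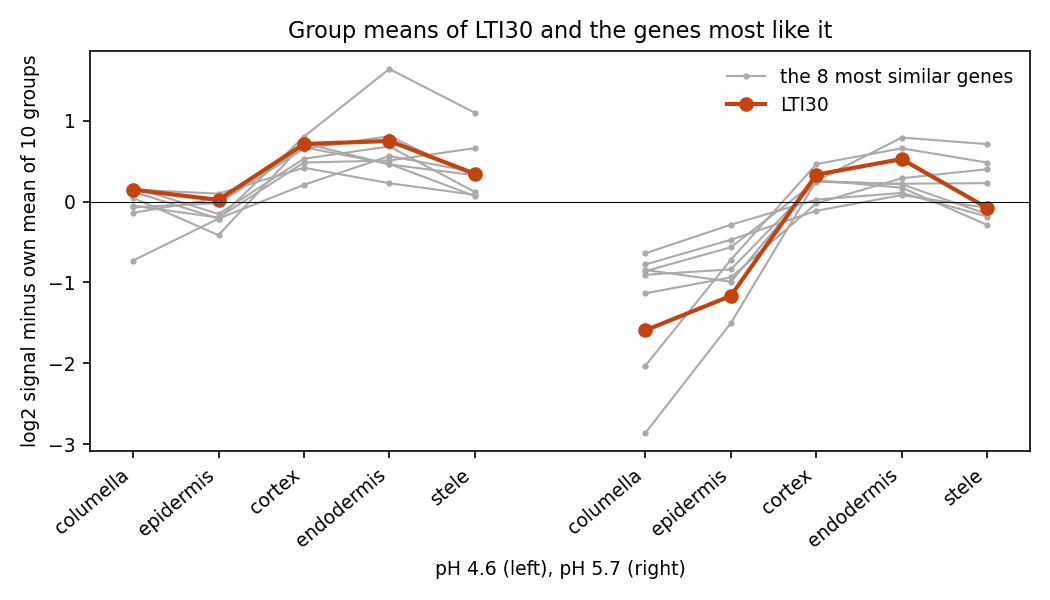
Group means of log2 signal, each gene minus its own mean over the 10 groups, for LTI30 (thick line) and the 8 genes with the highest r over these means (thin grey lines). The 5 cell types at pH 4.6 are on the left and the same at pH 5.7 on the right. LTI30 lies lowest in the columella at pH 5.7 and spans 0.73 between cell types at pH 4.6 and 2.12 at pH 5.7.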

How the data were processed

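RNA from sorted cells was amplified and hybridised to 30 arrays, 3 in each of 10 groups, with groups and replicate numbers from the labels. The deposited values are linear probe set intensity, made with MAS5 per the submitters' processing notes, with no version given. On every array the mean without the lowest and highest 2% was 250.0, and no genome build is given in the sources used here. Of 22810 probe sets, 64 controls were set aside. A platform table gave a single gene for 13513, several for 503 and none for 8730. Of the single-gene probe sets, 13436 matched TAIR10.1, which was used for names alone.

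Signals were transformed to log2 after adding 11.9 (percentile 25 of all values), and folds are on this scale. A probe set was tested if its signal exceeded the 40th percentile of the array on 3 or more arrays, which left 17039. limma 3.58.1 in R 4.3.3 fitted a mean per group to all 30 arrays with trended empirical Bayes moderation (20 residual and 8.32 prior degrees of freedom). F tests and contrasts were adjusted by Benjamini-Hochberg over all tested probe sets, with a threshold of 0.05. The number of arrays limits the precision. Arrays of a group correlated at 0.945 to 0.981, and no array duplicated another.

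Same-numbered arrays at the 2 pH values deviated together in the epidermis, with r above 0.1 for all 3 numbers (0.12 to 0.18). In no other cell type did all numbers exceed 0.1, though single values reached 0.21. The labels name no pairing, and the main fit used none, in the epidermis as elsewhere. The replicate block, an alternative, paired same-numbered arrays in every cell type.

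The gene, the lists and the alternatives were chosen with earlier results of these data known. The text names LTI30, all analysed dehydrins, up to 4 members of each other list with the largest mean change past the threshold, and the 8 genes most similar to LTI30. COR15A, COR15B, STZ and AT3G16800 were named outside this rule, after their values were seen. AGL42, AT4G28100, LHW and PHV also fall outside this rule, and were named as the remaining markers analysed. Of the markers, EXPA7, EXPA18, AT1G09750, AT1G62510, AT3G21670 and GSO1 had mean log2 changes of -0.90, -1.03, -0.62, -0.97, -0.80 and -0.73. Alternatives were other pseudocounts, filters and normalizations, a replicate block, robust moderation, array weights, fits to the arrays compared, and leaving out each array.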

Additional observations from a re-analysis of the deposited data

Results flagged for a closer look

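The change of LTI30 with pH differed between the 5 cell types (interaction of pH and cell type, limma adjusted p 1.82e-05). AT1G54410 (HIRD11) also changed unequally between cell types (limma adjusted p 4.25e-05), with its largest fall in the columella, where LTI30 had its largest rise. AT3G53040, a LEA gene, gave a limma adjusted p of 0.00408, but outside the columella its group means of 3.28 to 24.5 lay near or below the pseudocount of 11.9. The size of its changes there depends on that pseudocount, and no difference between cell types is read from it. Over all tested probe sets 12.5% were called by this test.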

How the results depend on the processing

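For LTI30, 9 results were followed: the changes in 5 cell types, their mean, the interaction and the F test at each pH. Of their 358 alternative values, 354 kept their direction and their side of the threshold, and the other 4 gained a call. Pairwise LTI30 comparisons of cell types are counted with the other results below, and several of them lost calls. Cortex minus stele at pH 4.6 lost its call in 24 of 39 alternatives, and the epidermis minus cortex response in 12 of 39. The cortex change was called with quantile normalization (log2 change 0.61), with array weights (0.30) and when 1 array was left out, where it ranged between 0.21 and 0.52. The stele change was called in 1 case, with a range of 0.30 to 0.52 when 1 array was left out. The cause was not tested. The range of LTI30 between cell types was 0.66 to 0.84 at pH 4.6 and 2.00 to 2.27 at pH 5.7 over the alternatives. The highest value at pH 5.7 came with equal array medians.

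Same-numbered arrays of the 2 pH values had correlations of deviations from -0.14 to 0.21, with 6 of 15 above 0.1. All 3 were above 0.1 in the epidermis alone, where the number may pair the arrays. The main fit used no pairing. For changes with pH and their differences, the block paired same-numbered arrays in every cell type. For levels compared at the same pH, it fitted an effect of the number shared by all arrays, without pairs. With the number as a replicate block, limma adjusted p-values for LTI30 were 7.73e-08 in the columella, 5.04e-05 in the epidermis, 0.0851 in the cortex, 0.334 in the endodermis and 0.0962 in the stele, and 0.000222 for the interaction. The response difference of epidermis and cortex (0.0514) and the cortex and stele step at pH 4.6 (0.0588) were not called with the block, nor was the endodermis and stele difference at pH 4.6 (0.0508).

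The other results were 177, and they include the pairwise LTI30 comparisons. Of their 6903 alternative values, 6642 kept their call, 209 lost it, 52 gained it and 0 called values reversed. Equal array medians moved the median change of all probe sets to -0.07 in the epidermis, -0.08 in the cortex and -0.04 in the stele, against 0.05, 0.02 and 0.07. The number of probe sets called in the epidermis was 1731, and 3330 with array weights and 781 to 2658 without 1 epidermis array. It was 3250 in the cortex (5751 with array weights), 2822 in the endodermis (1582 without replicate 1 at pH 4.6) and 1201 in the stele (389 to 704 without 1 of 4 stele arrays).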
